A study of Mus musculus with 8 samples.

Results

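The cytosolic and mitochondrial chaperones are the proteins that fold and refold other proteins outside the endoplasmic reticulum. They were listed here by name, from textbook membership of the heat shock, mitochondrial and chaperonin families, and not by any measured value. The list held 35 genes, of which 32 had a probe set that names 1 gene, among 19937 genes tested. It was divided into a cytosolic heat shock class (23 genes, 20 measured), a mitochondrial class (4 genes, 4 measured) and the chaperonin CCT (8 genes, 8 measured). Hspa1b, Hsp90ab1 and Hsf1 had no probe set of their own and were not analysed here, except that 1 probe set is shared by Hspa1a and Hspa1b.

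Expression was measured in mouse FoxP3+ Tregs (regulatory T cells), a CD4 lineage that holds immune responses in check. The cells carried either a knock-out of Bcl6, a transcriptional repressor of the zinc finger family (called KO-labelled below), or were wild type (WT). Cells of both genotypes were stimulated for 16 h with antibodies to CD3 and CD28, so no unstimulated sample stands beside them, and each Affymetrix array received the labelled product of 100 ng of total RNA. There were 8 arrays, 4 for each genotype, numbered as preparations 1 and 2 with arrays A and B of each. The labels give neither the strain, age or sex of the mice nor the deleted part of Bcl6 and the way in which it was deleted. Nor do they say whether a preparation or a letter is a separate mouse, culture or extract, so the p-values speak only of how these 8 samples scatter, and that scatter may be technical. In such bulk RNA, fewer cells of a type and less RNA per cell cannot be told apart.

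Chaperones of the Hsp70 family bind unfolded stretches of protein in a cycle of ATP hydrolysis that J-domain proteins start and exchange factors such as Hsp110 and Bag3 end. Hsp90 then finishes the folding of kinases and steroid receptors with a set of co-chaperones, the CCT ring encloses actin and tubulin while they fold, and Hsp60 with Hsp10 does the same in mitochondria. The transcription factor Hsf1 drives many of these genes through the heat shock element, a repeat of the letters GAA and TTC in alternation. In T cells, activation through the antigen receptor is known to raise the synthesis of many chaperones along with that of proteins at large.

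That element can be read in the promoters of the genes described below. A window of 250 bases before to 50 bases after the start of transcription was searched on both strands for the 2-unit form of the element, GAANNTTC or TTCNNGAA, each of which is its own reverse complement. A 3-unit form is such a match continued by another unit at the same spacing, so every 3-unit match contains overlapping 2-unit matches. The windows came from RefSeq with build GRCm38.p6. In the set used here, 29 of the 35 genes had at least 1, for 38 windows in all. That set left out listed genes' windows on a chromosome that was kept in the whole RefSeq table. Hspa9 had no window in the set, nor had Hspa8, Hsp90aa1, Hsp90ab1, Cct4 and Hsf1. The sequences that follow run from 150 bases before to 30 bases after the start, 5′ to 3′ on the strand of the gene, with 2-unit matches in capitals. They show the genes with a 3-unit match (Chordc1, Hspe1, Hsph1 and Dnajb6, the window of Hspe1 standing also for that of Hspd1), a heat-inducible Hsp70 gene (Hspa1a) and, for contrast, Fkbp5, the gene with the lowest p-value between genotypes.
Chordc1: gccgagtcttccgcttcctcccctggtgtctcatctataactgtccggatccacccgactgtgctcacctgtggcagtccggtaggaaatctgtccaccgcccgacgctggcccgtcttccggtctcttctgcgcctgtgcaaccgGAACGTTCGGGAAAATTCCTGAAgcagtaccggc
Hspe1: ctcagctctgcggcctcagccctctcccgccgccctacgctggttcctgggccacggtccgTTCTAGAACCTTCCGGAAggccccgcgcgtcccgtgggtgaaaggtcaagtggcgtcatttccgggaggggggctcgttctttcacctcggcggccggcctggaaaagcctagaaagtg
Hsph1: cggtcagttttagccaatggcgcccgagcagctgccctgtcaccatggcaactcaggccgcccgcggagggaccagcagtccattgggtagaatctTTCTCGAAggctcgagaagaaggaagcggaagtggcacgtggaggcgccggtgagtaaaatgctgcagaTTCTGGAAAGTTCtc
Dnajb6: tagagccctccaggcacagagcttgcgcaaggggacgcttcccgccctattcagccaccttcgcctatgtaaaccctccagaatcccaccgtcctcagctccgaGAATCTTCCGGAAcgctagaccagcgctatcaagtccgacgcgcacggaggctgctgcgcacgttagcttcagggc
Hspa1a: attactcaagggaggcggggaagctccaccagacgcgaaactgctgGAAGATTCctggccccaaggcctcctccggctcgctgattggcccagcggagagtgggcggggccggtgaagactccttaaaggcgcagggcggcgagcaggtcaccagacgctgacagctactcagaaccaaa
Fkbp5: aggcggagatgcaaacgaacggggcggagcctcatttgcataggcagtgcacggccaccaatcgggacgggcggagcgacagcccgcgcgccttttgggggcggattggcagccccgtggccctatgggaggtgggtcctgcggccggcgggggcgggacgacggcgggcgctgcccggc
These lie at chr9:18292117-18292296 on the plus strand (Chordc1), chr1:55087998-55088177 on the plus strand (Hspe1), chr5:149636286-149636465 on the minus strand (Hsph1), chr5:29735748-29735927 on the plus strand (Dnajb6), chr17:34972127-34972306 on the minus strand (Hspa1a) and chr17:28486120-28486299 on the minus strand (Fkbp5). Each spans the start site, so its last 30 bases are the beginning of the first exon.

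The window of Chordc1 held 5 overlapping or neighbouring 2-unit matches, 4 of them in the printed stretch at its start site. Hspe1, which codes for mitochondrial Hsp10, stands head to head with Hspd1, which codes for its partner Hsp60. Their starts are 216 bases apart, their windows share 285 bases and they hold the same 3 matches. The single match of Hspa1a and the 0 matches of Fkbp5 concern only these windows. Over the list, 18 of the 38 windows used (47.4%) held a 2-unit match, against 4946 of 32851 windows (15.1%) in the whole RefSeq table. The whole table had no chromosome left out, so the sets were not chosen in quite the same way. The 3-unit form stood in 7 of 38 windows (18.4%), belonging to 5 genes, against 0.603% of all windows. Some genes have more than 1 window, and those of Hsph1 and of Dnajb6 overlap, so their matches were counted more than once. Counted by gene, the 3-unit form stood in 17.2% of the listed genes with a window, against 0.662% of all genes with one. The 2-unit form stood in 55.2% against 17.0%. Of the 7 CCT genes with a window, 3 held a 2-unit match and 0 a 3-unit match. CCAAT, a common promoter motif searched in the same way, was found in 42.1% of the windows of the list and 37.4% of all windows. A match is a run of letters and was not shown here to be a site of Hsf1.

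Some features of the whole series bear on every value below. The deposited log2 values had an SD over all probe sets of 1.84 to 1.87 in the KO 1 arrays and of 1.56 to 1.70 in the 6 others, with array medians of 6.80 to 7.13. Bcl6 itself read 9.0, 8.82, 8.54 and 8.51 in the KO-labelled arrays and 7.97, 8.36, 8.33 and 7.86 in WT, so its probe set gives no sign of the knock-out, and where its probes lie relative to the deleted part is not stated in the labels. Kdm5d, a gene of the Y chromosome, was lower in the KO-labelled arrays (4.90 to 5.30) than in WT (7.02 to 7.70; limma adjusted p 0.0069), so sex and genotype cannot be told apart. Foxp3 had a mean of 10.8 in KO-labelled arrays and 9.91 in WT, and the mean of 6 Treg and CD4 T cell markers ran from 10.5 to 11.2 and from 9.79 to 10.6. The mean of the CD8 T cell markers (2 of 2 measured) was 7.16 to 7.58 in KO-labelled arrays and 7.40 to 7.73 in WT. B cell markers (3 of 4 measured) read 5.17 to 5.55 and 5.38 to 5.67, myeloid markers (5 of 6 measured) 5.98 to 6.28 and 5.98 to 6.29, and NK cell markers (2 of 2 measured) 4.71 to 5.0 and 4.92 to 5.06, while 0 of 3 red cell markers was measured. An array has no true zero, so none of these can be called absent, and their part in the chaperone values was not tested.

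The first question was whether chaperone transcripts differed between Bcl6 KO-labelled and WT Tregs. No member passed the test between genotypes: 0 of 32 had an adjusted p under 0.05 in a limma fit over all genes, in which 0.135% of all genes (27 of 19937) were called. Adjusted p-values of the members ran from 0.52 to 0.986, and the SE of a difference from 0.19 to 0.52 log2. Most members nevertheless read higher on average in the KO-labelled arrays, with a difference above 0 for 28 of 32 (87.5%), against 43.2% of all genes. That share was 86.7% over the 518 genes whose mean signal was 10 or more, a group that includes 15 of the 32 members, so it was near that of genes with high signal. The median difference was 0.61 log2 over the members and -0.06 over all genes tested. It was 0.40 over the high-signal genes. At an unadjusted p under 0.05, Hsp90aa1, Bag3, Fkbp5 and Cct6a were higher (4 of 32, against 5.65% of all genes) and 0 members were lower (0.542%). In 6 members every KO-labelled array exceeded every WT array, against 6.67% of all genes and 19.9% of those with high signal. These were Hspa8, Hsp90aa1, Hspd1, Bag3, Fkbp5 and Cct7 in the probe sets used, and a second set of Hspd1 did overlap. In 1, Hspb1, every KO-labelled array was below every WT array (2.11% of all genes).

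**Figure D1:**
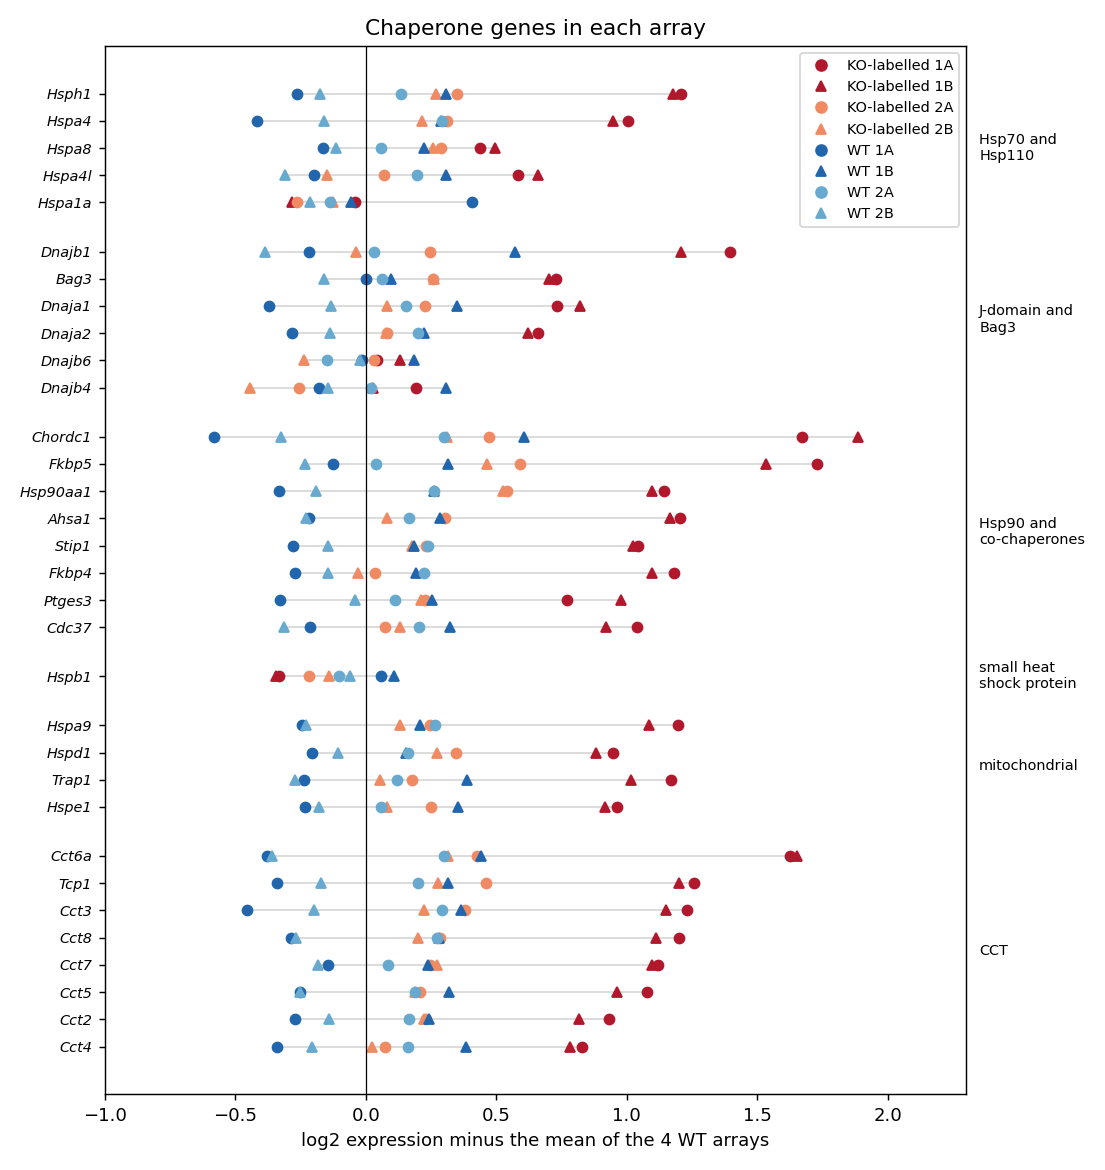
Expression of the 32 measured chaperone genes in each of the 8 arrays, as log2 expression minus the mean of the 4 WT arrays, ordered by family; points are single arrays (dark red, KO-labelled preparation 1; orange, KO-labelled preparation 2; dark and light blue, WT preparations 1 and 2; circles, array A; triangles, array B) and grey lines join the lowest to the highest. The KO 1 arrays lie to the right of the other 6 for 28 genes, the KO 2 arrays lie among the WT arrays for 16, and Hspa1a, Dnajb4, Dnajb6 and Hspb1 depart from that pattern.

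The second question, raised by the labels' numbering, was whether the preparations of a genotype were alike, and here the chaperones moved together. Both KO 1 arrays stood above the other 6 arrays in 28 of 32 members, against 32.9% of all genes and 75.5% of those with high signal. The exceptions were Hspa1a, Dnajb4, Dnajb6 and Hspb1. Within the KO label, 25 of 32 members (78.1%) were higher in preparation 1 than in preparation 2 at an adjusted p under 0.05, with a median difference of 0.80 log2 over all members. The same test called 27.7% of all genes higher and 31% lower, 34.4% of the high-signal genes higher, and 0 members lower. The other 7 were Hspa1a, Hspa8, Hsp90aa1 (adjusted p 0.104), Dnaja1 (0.0516), Dnajb6, Hspb1 and Ptges3 (0.0527). This test has only arrays A and B of each preparation, so its p-values measure the spread between those. In WT, 0 of 32 members and 0 of 19937 genes were called between preparations; at an unadjusted p under 0.05 it was 0 members and 210 genes, and the members' median was 0.05 log2.

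The difference from WT therefore divided between the KO preparations. Against the WT mean, the median over the members was 1.00 log2 in KO 1 and 0.20 in KO 2, while all genes had -0.13 and 0.02 and the high-signal genes 0.68 and 0.14. The fits that leave out a KO preparation had no random block. They count arrays A and B as independent, so their p-values do not measure the spread between KO preparations. With KO 2 left out, 27 of 32 members were higher than WT at an adjusted p under 0.05 (30.1% of all genes and 60.6% of high-signal genes were). In that fit 1 member, Hspb1, was lower (37% of all genes were). With KO 1 left out, 0 of 32 members and 0.722% of all genes were called against WT; at an unadjusted p under 0.05, Hsp90aa1 and Fkbp5 were higher (2 of 32, against 5% of all genes) and Dnajb4 was lower (1 of 32, against 1.42%). For 16 of 32 members both KO 2 arrays lay within the WT range, and this held for 56.3% of all genes. The WT arrays in turn had a common order. WT 1A and WT 2B were both below WT 1B and WT 2A in 29 of 32 members (90.6%, against 29.3% of all genes and 93.1% of high-signal genes), all but Hspa1a, Dnajb6 and Hspb1.

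The order of the arrays in chaperone level ran close to their order in overall spread. Measured from the WT mean, KO 1A had a members' median of 1.04 and KO 1B of 0.97, and their SDs over all probe sets were 1.87 and 1.84. It was 0.28 in WT 1B (SD 1.70), 0.25 in KO 2A (1.65), 0.18 in KO 2B (1.61) and 0.16 in WT 2A (1.62), and at the low end -0.18 in WT 2B (1.58) and -0.25 in WT 1A (1.56). After quantile normalization, which gives every array the same spread, the members' median difference between genotypes was 0.38 log2 (0.62 in KO 1, 0.11 in KO 2), that of all genes -0.01 and that of the high-signal genes 0.19. On that scale 0 of 32 members were called between genotypes (0.787% of all genes were), and 14 were higher at an unadjusted p under 0.05, against 8.98% of all genes and 27.4% of high-signal genes. Between the KO preparations, 15 of 32 members (46.9%) were higher in KO 1 after quantile normalization, against 13.5% of all genes and 18.0% of high-signal genes, and 0 were lower. The split of all calls between the KO preparations also moved with scaling: 47.2% were higher in KO 1 as deposited, 72% after quantile normalization and 81.7% with arrays centred on their median. When each array's SD entered the fit as a covariate, without the random block, the members' median difference between genotypes was 0.15 log2. In that fit 3 of 32 members were called (Hsp90aa1 and Fkbp5 higher, Dnajb4 lower), against 1031 of 19937 genes. Hspa4l, Dnajb1, Fkbp4 and Cct4 turned to below 0.

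**Figure D2:**
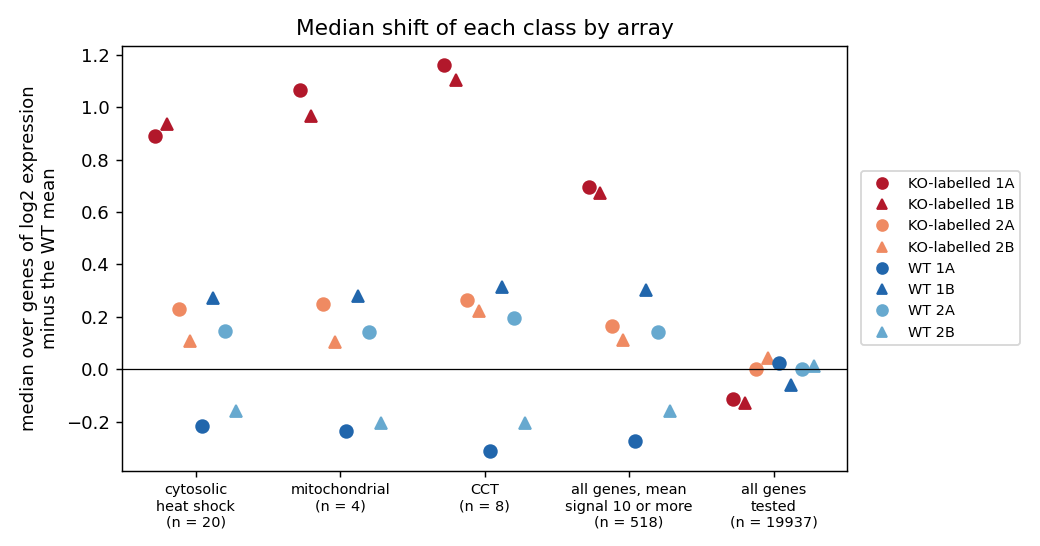
Median over genes of log2 expression minus the WT mean, for each of the 8 arrays (colours by genotype and preparation, circles array A, triangles array B) in the 3 chaperone classes, in the 518 genes with a mean of 10 or more and in all 19937 genes tested. Each chaperone class has the KO 1 arrays on top, WT 1A and WT 2B at the bottom and the KO 2 arrays between WT 1B and WT 2B, and the high-signal genes have the same order with a smaller shift.

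**Figure D3:**
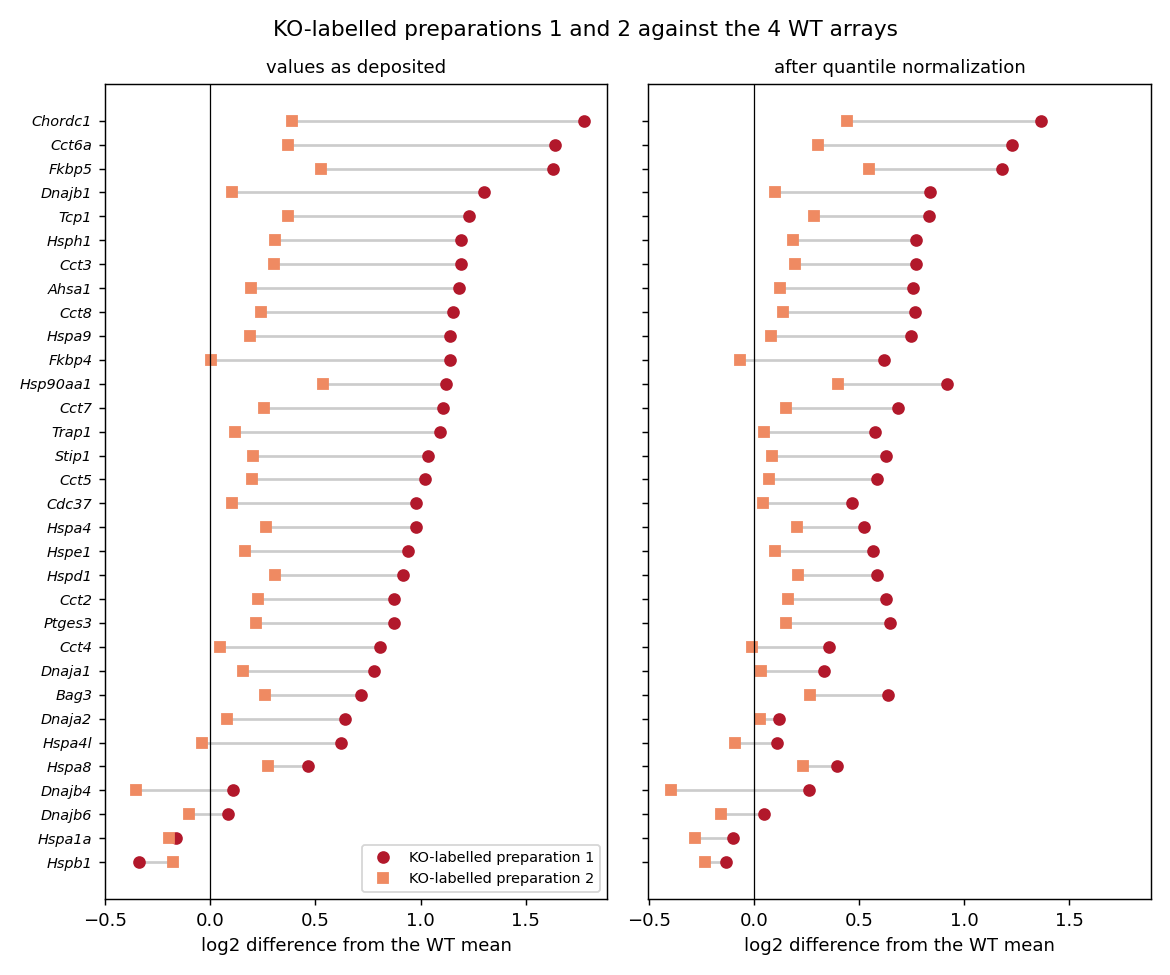
Difference of KO-labelled preparation 1 (dark red circles) and preparation 2 (orange squares) from the mean of the 4 WT arrays, in log2, for each chaperone gene as deposited (left) and after quantile normalization (right); each point is the mean of arrays A and B. The medians are 1.00 and 0.20 on the left and 0.62 and 0.11 on the right.

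Among the Hsp70 and Hsp110 genes, the median difference between genotypes was 0.37 log2 (0.62 in KO 1 and 0.26 in KO 2, 5 genes). Hspa1a, the heat-inducible cytosolic Hsp70 and thus the usual mark of a heat shock response, read 7.36, 7.12, 7.14 and 7.28 in KO 1A, KO 1B, KO 2A and KO 2B, and 7.81, 7.35, 7.27 and 7.19 in WT 1A, WT 1B, WT 2A and WT 2B. The groups overlapped and the highest array was WT 1A, which belonged to the lower pair of WT arrays in 29 of 32 members. Its difference was -0.18 ± 0.26 log2 (SE, n = 4 and 4 arrays, limma adjusted p 0.732). The probe set shared with the near-identical Hspa1b read 8.08, 7.88, 8.26 and 8.47 in KO-labelled arrays and 8.53, 8.30, 8.47 and 8.57 in WT, a difference of -0.29. In that set the KO 1 arrays were the lowest of the 8, and KO 2B overlapped with WT.

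Hspa8, the constitutive Hsp70 that also uncoats clathrin vesicles, read 13.04, 13.10, 12.89 and 12.86 in the KO-labelled arrays and 12.44, 12.83, 12.66 and 12.49 in WT. Each KO-labelled array exceeded each WT array, by little over WT 1B, and the difference of 0.37 ± 0.32 log2 (SE, limma adjusted p 0.701) was of the size of its error. Processed copies of Hspa8 lie elsewhere in the genome, and its probe sets differed. Which of them reads Hspa8 itself was not examined here, so the value of Hspa8 depends on the set. A set with a difference of 0.45 followed the order of the set used. Another, named here after its values were seen, read 12.62, 12.66, 12.73 and 12.74 in KO-labelled arrays and 10.58, 11.52, 11.97 and 11.91 in WT. In that set the KO preparations were level with each other, at 1.15 and 1.24 log2 above WT, all 4 WT arrays were lower and WT 1A stood well below the rest. Its difference was 1.19 ± 0.37 log2 (SE, limma adjusted p 0.564 with every probe set tested), which was not called.

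**Figure D4:**
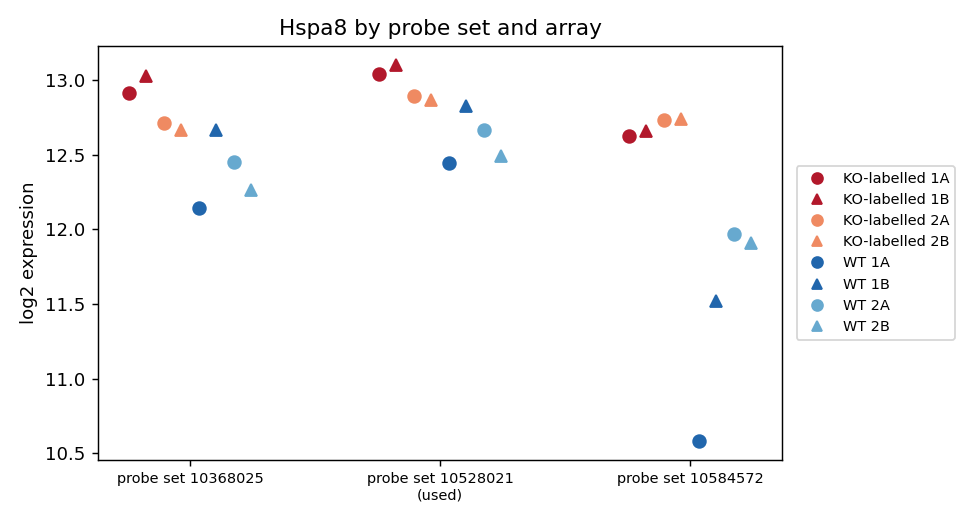
Log2 expression of Hspa8 in the 8 arrays by each of its 3 probe sets that name no other gene (colours by genotype and preparation, circles array A, triangles array B); levels are comparable within a probe set only. In the set used and in the first set the KO 1 arrays are highest, while in the last set the 4 KO-labelled arrays lie between 12.62 and 12.74 and the WT arrays between 10.58 and 11.97.

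Hsph1, the Hsp110 that serves as exchange factor for Hsp70 and whose promoter above has a 3-unit match, read 11.05, 11.02, 10.19 and 10.11 in the KO-labelled arrays and 9.58, 10.15, 9.98 and 9.66 in WT. KO 1 was well above the rest and KO 2B was below WT 1B. The difference between genotypes was 0.75 ± 0.35 log2 (SE, limma adjusted p 0.701), and KO 1 exceeded KO 2 by 0.88 log2 (limma adjusted p 0.0102). Its relatives Hspa4 and Hspa4l had genotype differences of 0.62 and 0.29, neither called, and both were higher in KO 1 than in KO 2, by 0.71 and 0.66 log2.

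The J-domain proteins, which hand substrates to Hsp70, and Bag3, which releases them and routes them to autophagy, had a median difference of 0.41 log2 (0.68 in KO 1 and 0.09 in KO 2, 6 genes). Dnajb1, the heat-inducible partner of Hsp70, read 9.54, 9.35, 8.39 and 8.11 in the KO-labelled arrays and 7.93, 8.72, 8.18 and 7.76 in WT. The KO 2 arrays fell within the WT range, and KO 1 exceeded KO 2 by 1.20 log2 (limma adjusted p 0.00404). Bag3 read 7.89, 7.86, 7.41 and 7.42 in the KO-labelled arrays and 7.16, 7.25, 7.22 and 7.0 in WT. Here the groups did not overlap in either preparation, and the difference was 0.49 ± 0.22 log2 (SE, limma adjusted p 0.701, unadjusted 0.0488).

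The constitutive J-domain proteins Dnaja1 and Dnaja2 had genotype differences of 0.47 and 0.36 log2, not called. The value of Dnaja1 depends on the probe set, since another of its own gave 0.23 and one shared with Mir207 gave -0.41. Dnajb6, a suppressor of protein aggregation whose promoter holds a 3-unit match, read 7.54, 7.63, 7.53 and 7.26 in the KO-labelled arrays and 7.49, 7.69, 7.35 and 7.48 in WT, with full overlap and a difference of -0.01. The 4 probe sets shared by Dnajb6 and the predicted gene Gm4247 gave 0.42 to 0.54 instead, so the value of Dnajb6 depends on the set. Dnajb4, another J-domain partner of Hsp70, read 7.28, 7.11, 6.83 and 6.64 in the KO-labelled arrays and 6.91, 7.39, 7.11 and 6.94 in WT. Its KO 2 arrays were the lowest of all 8 and its KO 1 arrays lay within the WT range, a difference of -0.12 between genotypes (limma adjusted p 0.806) and of 0.46 between KO 1 and KO 2 (limma adjusted p 0.0445).

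Hsp90 and its co-chaperones had a median difference of 0.65 log2 (1.13 in KO 1 and 0.21 in KO 2), and 8 of 8 measured members were above 0. Hsp90aa1, the inducible Hsp90, read 12.47, 12.42, 11.87 and 11.86 in the KO-labelled arrays and 11.00, 11.59, 11.59 and 11.14 in WT. KO 2 as well as KO 1 was above every WT array. The difference was 0.83 ± 0.37 log2 (SE, limma adjusted p 0.701, unadjusted 0.0422), and 0.82 and 0.85 in its other probe sets.

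Fkbp5, the peptidyl-prolyl isomerase that sits on Hsp90 in steroid receptor complexes and is itself induced by glucocorticoids, read 9.65, 9.46, 8.52 and 8.39 in the KO-labelled arrays and 7.80, 8.24, 7.97 and 7.70 in WT. Every KO-labelled array was above every WT array. It had the lowest p-value of the list, with a difference of 1.08 ± 0.35 log2 (SE, 2.11-fold, limma adjusted p 0.52, unadjusted 0.00822), made of 1.63 in KO 1 and 0.53 in KO 2. KO 1 also exceeded KO 2, by 1.10 log2 (limma adjusted p 0.00203). Its paralog Fkbp4, which has the same place on Hsp90, was at 0.00 in KO 2 against WT and at 1.14 in KO 1.

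Chordc1, an Hsp90 co-chaperone with CHORD zinc-binding domains, had nearly the genotype difference of Fkbp5 with a larger error. It read 9.72, 9.93, 8.51 and 8.35 in the KO-labelled arrays and 7.46, 8.65, 8.34 and 7.72 in WT. Both KO 2 arrays were below WT 1B, and the WT arrays themselves spanned more than a log2 unit. The difference was 1.08 ± 0.52 log2 (SE, 2.12-fold, limma adjusted p 0.701), and KO 1 exceeded KO 2 by 1.39 log2 (limma adjusted p 0.0056), the widest gap between the KO preparations in the list. Of the remaining co-chaperones, none was called between genotypes. Ahsa1, which speeds the ATPase of Hsp90, had a difference of 0.69, and Stip1 (Hop), which joins Hsp70 to Hsp90, 0.62. Ptges3 (p23), which holds the closed form, had 0.55, with 0.36 and 0.66 in its other probe sets. Cdc37, which brings kinases, had 0.54.

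Hspb1, the small heat shock protein Hsp27, went the other way. It read 6.92, 6.91, 7.04 and 7.11 in the KO-labelled arrays and 7.31, 7.36, 7.15 and 7.19 in WT. All KO-labelled arrays were lower than all WT arrays and KO 1 was lowest, but the difference of -0.26 ± 0.19 log2 (SE, limma adjusted p 0.701) was not called. With KO 2 left out, Hspb1 was lower in KO 1 than in WT by a difference of -0.34 log2 (limma adjusted p 0.0343), as were 37% of all genes. After quantile normalization its difference from the WT mean was -0.13 in KO 1 and -0.23 in KO 2, so KO 1 was no longer the lower preparation.

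The mitochondrial chaperones lay close together, with genotype differences of 0.55 to 0.66 log2 and 0 of 4 called. Hspd1 (Hsp60) read 11.63, 11.57, 11.03 and 10.96 in the KO-labelled arrays and 10.48, 10.84, 10.85 and 10.58 in WT. In this probe set, the one used, the groups did not overlap. Its partner Hspe1 (Hsp10) read 11.32, 11.27, 10.61 and 10.44 against 10.12, 10.71, 10.42 and 10.18, with the KO 2 arrays inside the WT range. These head-to-head genes, which share the promoter printed for Hspe1, had differences of 0.61 ± 0.31 and 0.55 ± 0.35 log2 (SE, limma adjusted p 0.701 for each). A second probe set of Hspd1 gave 0.93, but there the groups overlapped. In it KO 2B (9.58) was below WT 1B (9.70) and WT 2A (9.72). Hspa9 (mortalin), the mitochondrial Hsp70 that pulls in imported proteins, had 0.66, and Trap1, the mitochondrial Hsp90, 0.60. Between the KO preparations 4 of 4 were called higher in KO 1 (27.7% of all genes were), by 0.61 (Hspd1) to 0.97 log2 (Trap1). After quantile normalization 2 of 4 were called, against 13.5% of all genes.

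The CCT genes code for the 8 different subunits of 1 complex and had a median difference of 0.69 log2 (1.13 in KO 1 and 0.25 in KO 2). All 8 were higher in KO 1 than in KO 2 at a limma adjusted p under 0.05, by 0.65 to 1.27 log2. The same test called 27.7% of all genes and 34.4% of high-signal genes higher. After quantile normalization it called 5 of the 8, against 13.5% of all genes. Cct6a had the largest difference between genotypes and Cct4 the smallest (0.43 log2). Cct6a read 11.09, 11.11, 9.89 and 9.77 in the KO-labelled arrays and 9.08, 9.90, 9.76 and 9.10 in WT. Both KO 2 arrays lay within the WT range, and the difference of 1.00 ± 0.46 log2 (SE, 2.01-fold, limma adjusted p 0.701, unadjusted 0.0479) came mostly from KO 1.

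Tcp1, the first subunit, read 11.40, 11.34, 10.61 and 10.42 in the KO-labelled arrays and 9.80, 10.46, 10.34 and 9.97 in WT. KO 2B was just below WT 1B, and the difference was 0.80 ± 0.37 log2 (SE, limma adjusted p 0.701). Cct7 was the CCT gene whose groups did not overlap, at a difference of 0.68. The others were Cct3 at 0.75, Cct8 at 0.70, Cct5 at 0.61 and Cct2 at 0.55 log2, none called between genotypes. As subunits of 1 complex measured on the same arrays, they are not independent of each other.

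The median genotype difference of members with a heat shock element match was not above that of members without. Only measured members with a promoter window in the set used were compared. Hsp90aa1 (0.83 log2), Hspa9 (0.66), Cct4 (0.43) and Hspa8 (0.37) had none and were left out, so the comparison does not cover them. The 15 with a 2-unit match had a median difference between genotypes of 0.55 log2 (0.91 in KO 1 and 0.17 in KO 2). The 13 without had 0.68 (1.11 and 0.22), and the 5 with a 3-unit match 0.61, from -0.01 in Dnajb6 to 1.08 in Chordc1. The windows printed above show the extremes, since Chordc1 with 5 matches and Fkbp5 with 0 had genotype differences of 1.08 log2 each. These are descriptions without a test.

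A wider list of 61 further chaperones and cofactors, all measured, was set beside the members. Between genotypes 0 of 61 were called, 4 (6.56%, against 5.65% of all genes) were higher (Bag1, Ppid, Aarsd1 and Rpap3) and 0 lower at an unadjusted p under 0.05, and 51 had a difference above 0, with a median of 0.37 log2 (0.70 in KO 1 and 0.06 in KO 2). Between the KO preparations 40 (65.6%, against 27.7% of all genes) were higher in KO 1 and 8 (13.1%, against 31%) lower. The 4 largest genotype differences were those of Rpap3, which joins Hsp90 to the assembly of RNA polymerases (0.92 log2), Vbp1, a subunit of prefoldin, which feeds actin and tubulin to CCT (0.83), Bag1, an exchange factor of Hsp70 (0.82), and Sugt1, a co-chaperone that works with Chordc1 on Hsp90 (0.78). The 13 Hsp90 cofactors were all above 0 with a median of 0.51, and the 10 prefoldin and CCT cofactors had 0.49. The small heat shock proteins Hspb2, Hspb6, Hspb8 and Cryab differed between genotypes by -0.39, -0.36, -0.31 and -0.014 log2, not called. As deposited, they were lower in KO 1 than in KO 2 (limma adjusted p 0.0015, 0.016, 0.0132 and 0.0343), as were 31% of all genes. After quantile normalization 17 of the 61 were called higher in KO 1 (27.9%, against 13.5% of all genes). Then 1 of the 61 was called lower, against 1045 of 19937 genes, and it was among the 7 small heat shock proteins and regulators. The median of KO 1 minus KO 2 over those 7 was -0.45 log2 as deposited and -0.10 after quantile normalization.

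Genes that respond within minutes to handling or stimulation were read as a further list. Of the 10 (Fos, Fosb, Jun, Junb, Egr1, Atf3, Dusp1, Zfp36, Ier2 and Btg2) 0 were called between genotypes (0.135% of all genes were). Jun (0.53 log2) and Junb (0.77 log2) were higher at an unadjusted limma p under 0.05, as were 5.65% of all genes. Their median difference was 0.19 log2, at 0.47 in KO 1 and -0.05 in KO 2. The mean of the list was 7.84 to 8.36 in KO-labelled arrays and 7.74 to 7.96 in WT. Both KO 1 arrays were above the other 6 in 6 of the 10 genes, against 32.9% of all genes. Fosb was lower in KO 1 than in KO 2 (by a difference of -0.60 log2, limma adjusted p 0.0184), as were 31% of all genes. The part of this list in the chaperone values was not tested.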

How the data were processed

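RNA of 8 Treg samples was hybridised to Affymetrix whole-transcript arrays. The deposited values are log2 expression per probe set, which the authors produced in Partek with the RMA method according to the submitters' processing notes, with no version or filter stated in the sources used here. RMA commonly includes background correction and normalization, which can narrow or widen differences between arrays, and the arrays still differed in spread. No further normalization was applied. Precision is limited by the small number of arrays.

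Of 28768 probe sets, the platform annotation, which can be old, gave 21771 one gene symbol, 1557 several and 5440 none, and 0 symbols were updated. For 999 genes with several sets, the set with the highest mean was used, leaving 19937 genes. No filter on low values was applied, so every measured member entered the test.

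limma 3.58.1 (R 4.3.3; lmFit, eBayes with a variance trend) compared the genotypes, the preparation being a random block (correlation 0.617), two-sided, Benjamini-Hochberg adjusted over all genes and called under 0.05. A fit to the single arrays, with a coefficient for each preparation and no random block, compared KO 1 with KO 2 and WT 1 with WT 2. Its error was the spread between arrays A and B. The test was checked on simulated data. KO 1 or KO 2 alone was compared with WT without the block.

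The members, gene lists and promoter motifs were chosen with earlier results of these data known. By the rule for named genes, values per array were given for the 6 largest differences, the lowest p and a set of representative genes. That set was Hspa1a, Hspa8, Hsp90aa1, Hspd1, Hspe1, Fkbp5, Bag3 and Tcp1. Values per array of Dnajb1, Dnajb4, Dnajb6 and Hspb1 were added after they were seen. The genes with the 4 largest differences of the wider list were named with their genotype difference only. The alternatives were other blocks, variance models, weights, scalings, filters, probe set choices, the array SD as a covariate, and leaving out arrays or preparations. The members' other probe sets were added after the data were seen. Protein sequences were not used here.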

Additional observations from a re-analysis of the deposited data

How the results depend on the processing

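The count of 27 genes called between genotypes was 113 without the random block, 52 on preparation means, 16 with the letter as a block, 66 with array weights, 157 after quantile normalization, 14 with median centring, 41 with every probe set tested and 1031 with the array SD as a covariate. It was 15 to 57 without single arrays, 144 without KO 1, 13378 without KO 2, 12 without WT 1 and 0 without WT 2 (200 at an unadjusted p under 0.05, limma). Of the calls, 88.9% were higher in KO-labelled arrays as deposited and 77.1% after quantile normalization. The preparation number as a replicate block gave 677 genes and 1 member, Fkbp5 (adjusted p 0.0209). The numbers pair nothing in the labels, and the deviations of number 1 against 2 in KO and WT correlated at 0.416 over genes. Of the members, 0 were called in 21 of 24 alternatives; beside the replicate block, 28 were called without KO 2 and 3 with the SD covariate: Hsp90aa1 (0.45, adjusted p 0.0357), Fkbp5 (0.48, 0.0069) and Dnajb4 (-0.43, 0.0149).

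With the SD covariate the median difference was 0.15 for all members, 0.10 for the cytosolic class, 0.11 for the mitochondrial class and 0.18 for CCT (0.69 as deposited). Between the KO preparations, quantile normalization called 3738 genes and 15 members, against 11714 and 25 as deposited. Of 32 members, 26 kept the direction of their genotype difference in every alternative. Dnajb6, at -0.01, was 0.054 with array weights, 0.094 with median centring, -0.052 to 0.064 without single arrays (above 0 without KO 2B, WT 1B or WT 2B), 0.087 without KO 2 and 0.078 without WT 1. With the SD covariate Hspa4l was -0.12, Dnajb1 -0.013, Fkbp4 -0.030 and Cct4 -0.046. Hspa4l was -0.039 without KO 1, and Dnajb4 0.11 without KO 2. The cause was not tested.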
